A study of Mus musculus with 2 samples.

Results

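The 10 miRNA genes described here belong to 3 loci of the mouse genome. Mir106b, Mir93 and Mir25 form the miR-106b-25 cluster, Mir106a, Mir18b, Mir20b, Mir19b-2, Mir92-2 and Mir363 form the miR-106a-363 cluster, and Mir92b stands alone. They were chosen by name, through the GENCODE M21 symbol of their Ensembl identifiers, and no measured value entered this rule. Earlier results of these data were known when the genes were chosen. All 10 were found among the 1973 miRNA genes of the tables. The reads come from small RNA of whole hindbrain of B6NCrl mouse embryos, male and female together, at embryonic day 12.5. There is 1 group of 2 libraries and no treatment or mutant. Replicate 1 was made from a pool of 120 embryos and replicate 2 from a pool of 88, and each sums all cell types of the dissected tissue. The labels number the libraries as biological replicates 1 and 2. Beyond this and the pool sizes, nothing in the labels says how the pools were separated, so the spread between them may be partly technical.

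MicroRNAs are cut from hairpin precursors and guide repression of messenger RNAs, mainly through their seed, bases 2 to 8 counted from the 5′ end. The clusters descend from the same ancestral locus as the miR-17-92 cluster, known for promoting proliferation and blocking apoptosis. Their hairpins fall into 4 seed families. The miR-17 family is known for repressing the cell cycle inhibitor p21 (Cdkn1a) and the miR-25/92 family for repressing the death-promoting gene Bim (Bcl2l11). The miR-106b-25 cluster is carried by an intron of Mcm7, a subunit of the helicase that opens DNA for replication. In the embryonic cortex, miR-92b is known for restraining Tbr2 (Eomes), the factor that marks intermediate progenitors.

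The mature sequences below are from RefSeq on GRCm38.p6, where all 10 genes were matched, and the capitals mark the seed. For each gene the arm that carries the family seed is shown. The miR-17 seed is carried by 4 of the genes, and miR-17-5p itself is added for comparison:
miR-93-5p: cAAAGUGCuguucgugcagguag
miR-106b-5p: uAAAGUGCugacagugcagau
miR-106a-5p: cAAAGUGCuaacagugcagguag
miR-20b-5p: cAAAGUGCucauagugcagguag
miR-17-5p: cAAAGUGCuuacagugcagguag

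The miR-18 and miR-19 seeds are each carried by 1 of the genes, Mir18b and Mir19b-2:
miR-18b-5p: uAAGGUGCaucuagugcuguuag
miR-19b-3p: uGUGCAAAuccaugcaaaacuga

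Mir92b, Mir25, Mir363 and Mir92-2 carry the miR-25/92 seed:
miR-92b-3p: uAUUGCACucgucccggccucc
miR-25-3p: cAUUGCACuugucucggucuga
miR-363-3p: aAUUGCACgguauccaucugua
miR-92a-3p: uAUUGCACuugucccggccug

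Positions in the following comparisons are counted from 1 at the 5′ end, with the base of the reference miRNA, miR-17-5p or miR-92a-3p, before the position and that of the compared miRNA after it. miR-106a-5p differs from miR-17-5p by U10A alone. miR-20b-5p differs from miR-17-5p by U10C and C12U, and miR-93-5p by U10G, A11U, C12U and A13C. Over the 21 bases of miR-106b-5p, the differences from miR-17-5p are C1U, U10G and G20A. In the other large family, miR-92b-3p differs from miR-92a-3p by U10C and G21C over 21 bases, and miR-25-3p by U1C, C14U and C18U. miR-363-3p shares little with miR-92a-3p beyond the seed, with 11 differences in 21 bases.

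On their own strand, the miRNA genes collected 2764276 reads in replicate 1 and 3946444 in replicate 2. Levels are counts per 1000000 of these assigned counts (CPM), with mean ± SD over n = 2. Where no read is found, the level can still be up to 1.09 CPM (replicate 1) or 0.760 CPM (replicate 2), from 3 counts of the total. These limits and all intervals below cover counting error only. Reads were taken to be whole miRNAs, so levels were not corrected for gene length. Read lengths were not examined. Ligation preferences of small RNA libraries still differ between miRNAs. The hindbrain and neural markers Mir10a, Mir10b, Mir137, Mir153, Mir9-3 and Mir124a-2 were all detected and summed to 47301 and 45775 CPM. Most of this sum came from Mir10a (26347 and 25880 CPM) and Mir10b (15998 and 14531 CPM). The others were lower, from Mir137 at 3263 and 3342.5 CPM down to Mir124a-2 at 10.5 and 9.38 CPM. Markers of other cell types were present in both libraries. Endothelial Mir126a had 25987 and 23442 CPM. The 3 smooth muscle and mesenchyme markers summed to 20492 and 20549 CPM, the 3 epithelial markers to 6180 and 3567 CPM, and the leukocyte, erythroid and striated muscle pairs to at most 592 CPM each. In such bulk tissue, fewer cells of a type and less RNA per cell cannot be told apart.

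All 10 genes were detected, with at least 10 counts in each library. Together they held 4.21% of the assigned counts in replicate 1, with an exact 95% interval (Clopper-Pearson) from 4.18% to 4.23%. In replicate 2 they held 4.14%, between 4.12% and 4.16%. Of this sum, Mir93 gave 36.4% and 44.2% in replicates 1 and 2, Mir106b 25.3% and 26.1%, and Mir92b 25.6% and 17.1%. The remaining 7 genes shared what was left. Mir93, Mir106b and Mir92b ranked 15, 21 and 29 among the 1973 genes by mean CPM, while Mir19b-2 ranked 329. Among reads placed at a single position, levels from Mir93 down to Mir19b-2 spanned a 1512-fold range in replicate 1 and a 3009-fold range in replicate 2. Reads of Mir19b-2 that match more than 1 position enter no gene count, so its level, its rank and this range hold for placed reads only.

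**Figure D1:**
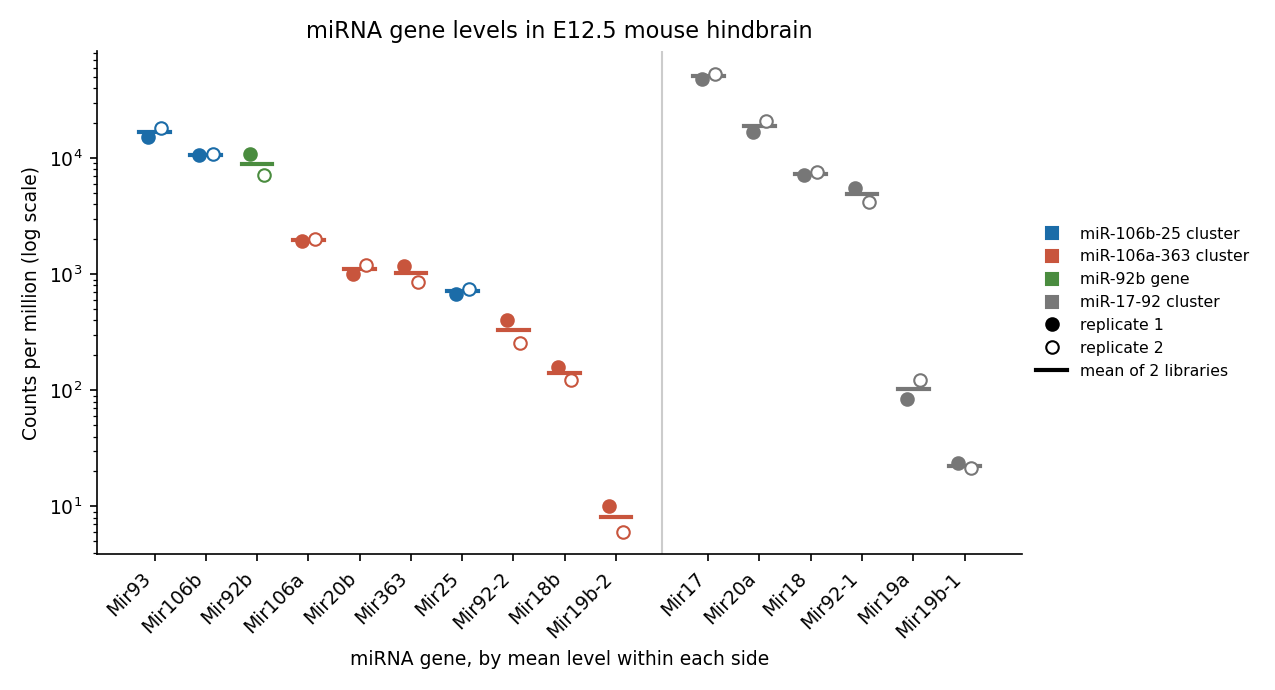
Level of each gene in CPM on a log axis, with filled points for replicate 1, open points for replicate 2 and bars for the mean of the 2 libraries. The 10 described genes are on the left, coloured by locus. Among reads placed at a single position, Mir93 is highest at a mean of 16809 CPM and Mir19b-2 lowest at 8.11 CPM. The 6 genes of the miR-17-92 cluster are on the right in grey.

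Among reads placed at a single position, the miR-106b-25 cluster was the most abundant of the 3 loci. It held 2.66% of the assigned counts in replicate 1 (exact interval 2.64% to 2.68%) and 2.98% in replicate 2 (2.97% to 3.001%), with a mean of 2.82% ± 0.228 (n = 2). In GRCm38 the cluster lies on the minus strand of chromosome 5 from 138165321 to 138165818. All of its hairpins fall in intron 13 of the 15-exon Mcm7-201 transcript. In the retained-intron transcript Mcm7-202, Mir93 and Mir25 fall in an exon. Mcm7 messenger RNA was not measured.

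The hairpins of this cluster are printed here because they come from the same intron and their counts differed widely. Capitals mark the mature arm with the family seed, which is the 5′ arm in Mir106b and Mir93 and the 3′ arm in Mir25:
Mir106b: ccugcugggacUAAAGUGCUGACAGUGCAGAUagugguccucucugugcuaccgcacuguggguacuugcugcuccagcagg
Mir93: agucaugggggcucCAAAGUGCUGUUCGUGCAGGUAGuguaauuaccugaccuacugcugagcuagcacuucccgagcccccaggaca
Mir25: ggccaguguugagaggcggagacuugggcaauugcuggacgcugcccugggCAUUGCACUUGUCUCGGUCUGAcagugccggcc

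Mir93 (ENSMUSG00000065527.1), from 138165523 to 138165610, had 42336 counts or 15315 CPM in replicate 1 and 72227 counts or 18302 CPM in replicate 2. Mir106b (ENSMUSG00000065514.1), from 138165737 to 138165818, had 29368 counts or 10624 CPM and 42598 counts or 10794 CPM. Mir106b was nearly equal in the libraries, and Mir93 exceeded it by 1.44-fold in replicate 1 and by 1.70-fold in replicate 2, with ranges that did not overlap. Mir25 (ENSMUSG00000065394.1), from 138165321 to 138165404, had 1884 counts or 682 CPM and 2935 counts or 744 CPM. Mir25 was thus far below its neighbours in both libraries. Mir93 exceeded Mir25 by 22.5-fold and 24.6-fold, and Mir106b exceeded it by 15.6-fold and 14.5-fold. Mir25 gave 2.56% of the cluster's counts in replicate 1 and 2.49% in replicate 2, a share that differed little between the libraries. Its mature miR-25-3p was found in no other of the 2202 miRNA hairpins of GENCODE M21 searched, and the same held for miR-93-5p and miR-106b-5p. Copies elsewhere in the genome were not searched for.

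The miR-106a-363 cluster held 0.469% of the assigned counts in replicate 1 (exact interval 0.461% to 0.477%) and 0.444% in replicate 2 (0.437% to 0.450%). The miR-106b-25 cluster exceeded it by 5.68-fold and 6.73-fold in placed reads. Reads of Mir92-2 and Mir19b-2 that match more than 1 position are missing from the miR-106a-363 sum. The cluster lies on the minus strand of chromosome X from 52741693 to 52742567, and its 6 hairpins run from Mir106a at the 5′ end to Mir363 at the 3′ end. Mir106a overlaps in part an exon of the noncoding gene Kis2 on the same strand. The other hairpins lie 150 to 796 bases from Kis2, outside any other annotated gene. The nearest coding gene, Ccdc160, is on the opposite strand.

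Among reads placed at a single position, the miR-17 seed genes Mir106a and Mir20b led this cluster together with Mir363, each with a mean above 1000 CPM. Mir106a (ENSMUSG00000065456.1), from 52742503 to 52742567, had 5361 counts or 1939 CPM in replicate 1 and 7910 counts or 2004 CPM in replicate 2. Mir20b (ENSMUSG00000076041.1), from 52742113 to 52742192, had 2797 counts or 1012 CPM and 4689 counts or 1188 CPM. Mir106a exceeded Mir20b by 1.92-fold and 1.69-fold, with ranges apart. Mir363 (ENSMUSG00000070106.1), from 52741693 to 52741767, had 3236 counts or 1171 CPM and 3391 counts or 859 CPM. Mir20b and Mir363 were in opposite order in the libraries, so their levels did not differ beyond their spread. Mir18b (ENSMUSG00000077111.2), the only miR-18 seed gene here, had 440 counts or 159 CPM and 486 counts or 123 CPM, at 52742331 to 52742413. Mir106a exceeded Mir18b by 12.2-fold and 16.3-fold.

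Mir92-2 and Mir19b-2, the remaining hairpins of the chromosome X cluster, had low counts that are also uncertain. Mir92-2 (ENSMUSG00000065613.1), from 52741838 to 52741928, had 1105 counts or 400 CPM in replicate 1 and 1008 counts or 255 CPM in replicate 2. Mir19b-2 (ENSMUSG00000065473.1), from 52741983 to 52742066, had 28 counts or 10.1 CPM and 24 counts or 6.08 CPM. Their mature miRNAs are also encoded by the miR-17-92 cluster. miR-92a-3p occurs in Mir92-1 and Mir92-2 within a run of 22 identical bases, and miR-19b-3p occurs in Mir19b-1 and Mir19b-2 within a run of 25. A read that lies inside such a run matches more than 1 position and enters no gene count. Reads that match several positions numbered 1947238 in replicate 1 and 2890679 in replicate 2, and how many of them were miR-92a or miR-19b was not tested. The other 8 genes share no run of 20 bases with another hairpin.

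The hairpins of Mir92-2 and Mir92-1 are printed to show this shared stretch. The capitals mark miR-92a-3p, which is identical in both:
Mir92-2: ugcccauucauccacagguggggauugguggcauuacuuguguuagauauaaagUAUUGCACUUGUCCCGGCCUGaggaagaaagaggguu
Mir92-1: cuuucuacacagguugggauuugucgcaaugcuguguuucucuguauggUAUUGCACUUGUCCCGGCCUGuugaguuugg

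**Figure D2:**
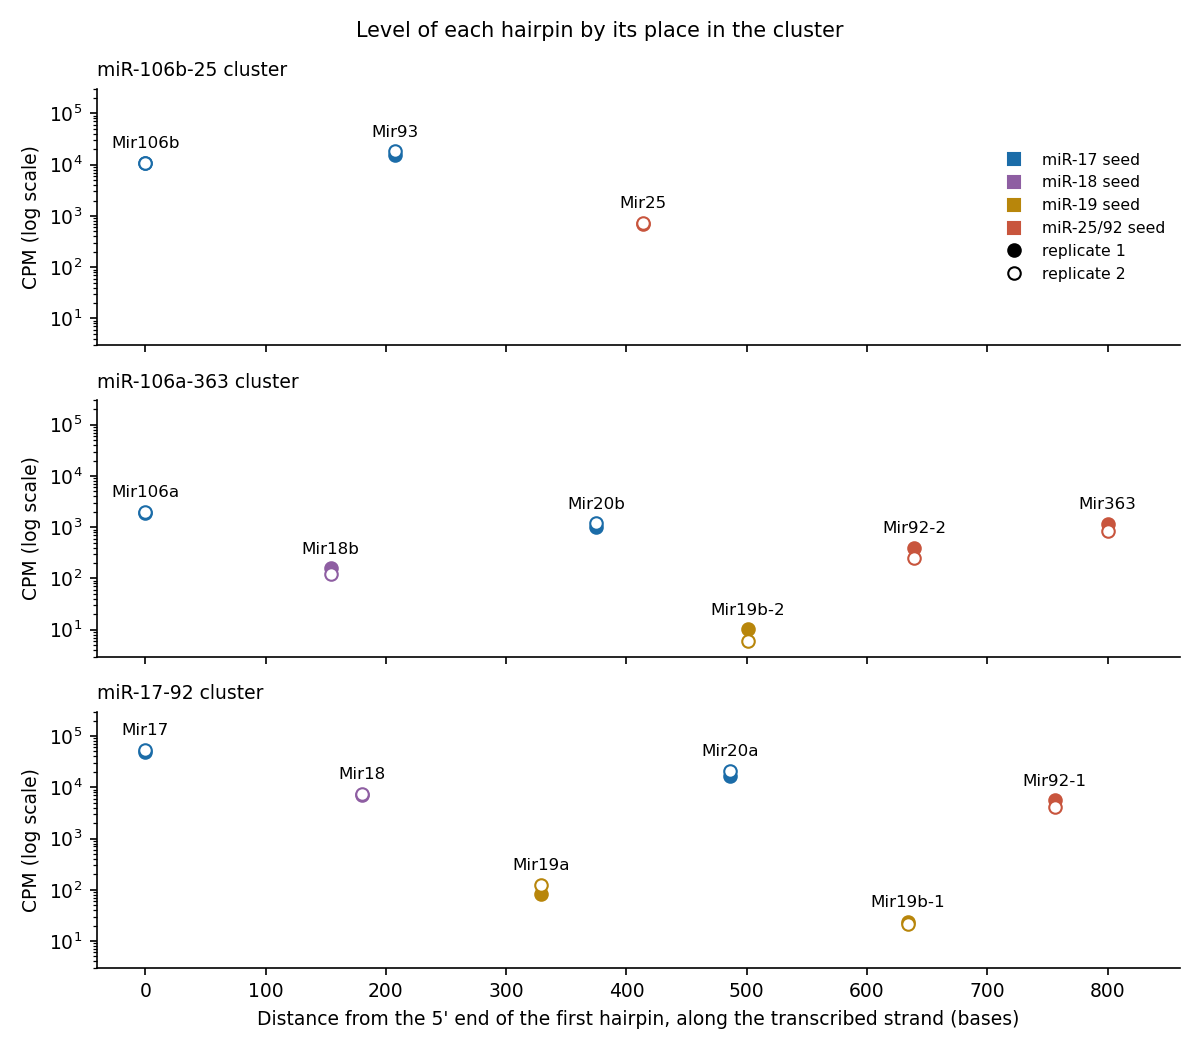
Level of each hairpin in CPM (log axis) against the distance in bases of its 5′ end from that of the first hairpin, for the 3 clusters, with filled points for replicate 1 and open points for replicate 2 and colours for the seed family. Mir25, at the 3′ end of the miR-106b-25 cluster, lies at 682 and 744 CPM, below both of its neighbours. In each longer cluster the hairpins with the miR-19 seed are the lowest among reads placed at a single position. Reads inside the run shared by Mir19b-1 and Mir19b-2 are left out.

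Mir92b (ENSMUSG00000076255.2) was the third of the 10 genes by mean level in reads placed at a single position. It lies on the minus strand of chromosome 3 from 89227116 to 89227198, outside any other annotated gene and 28 bases from Mtx1, a gene of the mitochondrial outer membrane on the same strand. Mir92b had 29718 counts or 10751 CPM in replicate 1 and 27989 counts or 7092 CPM in replicate 2, with a mean of 8921 ± 2587 CPM (n = 2). Replicate 1 was the higher library. The range of Mir92b overlapped that of Mir106b, so their levels did not differ beyond their spread.

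Within the miR-25/92 family Mir92b had the most placed counts in both libraries. It exceeded Mir25 by 15.8-fold in replicate 1 and by 9.54-fold in replicate 2, and Mir363 by 9.18-fold and 8.25-fold. It also exceeded Mir92-1 of the miR-17-92 cluster by 1.94-fold and 1.68-fold, though reads of miR-92a-3p that fit both of its hairpins are missing from Mir92-1. Among the 5 listed genes with this seed, Mir92b held 57.9% and 53.9% of the counts and Mir92-1 held 29.9% and 32.0%. Mir363 held 6.31% and 6.53%, Mir25 held 3.67% and 5.65%, and Mir92-2 held 2.15% and 1.94%.

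In order of mean level, the 10 genes were Mir93, Mir106b, Mir92b, Mir106a, Mir20b, Mir363, Mir25, Mir92-2, Mir18b and Mir19b-2. Of the 9 neighbouring pairs in this order, 7 had ranges that did not overlap, and the pairs of Mir106b with Mir92b and of Mir20b with Mir363 overlapped. The places of Mir92-2 and Mir19b-2 in the order, and the pairs that include them, hold only for reads placed at a single position. The order was not tested, since with 2 libraries the smallest p of an exact two-sided test is 0.5.

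Among reads placed at a single position, most counts of genes with the miR-17 seed came from the miR-17-92 cluster, and most counts of genes with the miR-25/92 seed came from the genes described here. These counts sum both arms of a hairpin, so they include the arm without the seed. They also leave out reads of miR-92a-3p and miR-19b-3p that lie inside the shared runs, so the shares of the miR-25/92 and miR-19 families hold for placed reads only. The miR-17-92 cluster, made of Mir17, Mir18, Mir19a, Mir20a, Mir19b-1 and Mir92-1, exceeded the miR-106b-25 cluster by factors of 2.93 and 2.88 in replicates 1 and 2. It exceeded the miR-106a-363 cluster by 16.6-fold and 19.4-fold. Of the counts of the 6 listed genes with the miR-17 seed, the miR-106b-25 cluster held 27.6% and 27.3%, the miR-106a-363 cluster 3.14% and 3.001%, and Mir17 and Mir20a together the other 69.3% and 69.7%. The 4 described genes with the miR-25/92 seed held 70.1% and 68.0% of the placed counts of the 5 listed genes. Mir18b held 2.18% and 1.61% of the counts of Mir18 and Mir18b. Mir19b-2 held 8.64% and 4.03% of the placed counts of the genes with the miR-19 seed.

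Each gene of the chromosome X cluster was lower than the counterpart of the same seed in the miR-17-92 cluster. Mir17 exceeded Mir106a, which differs from it at a single base of the mature miRNA, by 24.9-fold and 26.6-fold. Mir20a exceeded Mir20b by 16.6-fold and 17.5-fold, and Mir18 exceeded Mir18b by 44.9-fold and 61.1-fold. Mir92-1 exceeded Mir92-2 by 13.9-fold and 16.5-fold, and Mir19b-1 exceeded Mir19b-2 by 2.32-fold and 3.50-fold, both with the reads that match their shared runs left out. On chromosome 5, Mir93 was below Mir17 by 3.15-fold and 2.91-fold. Mir93 was close to Mir20a, which had 16840 and 20763 CPM. Mir20a was the higher in each library, but their ranges overlapped.

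**Figure D3:**
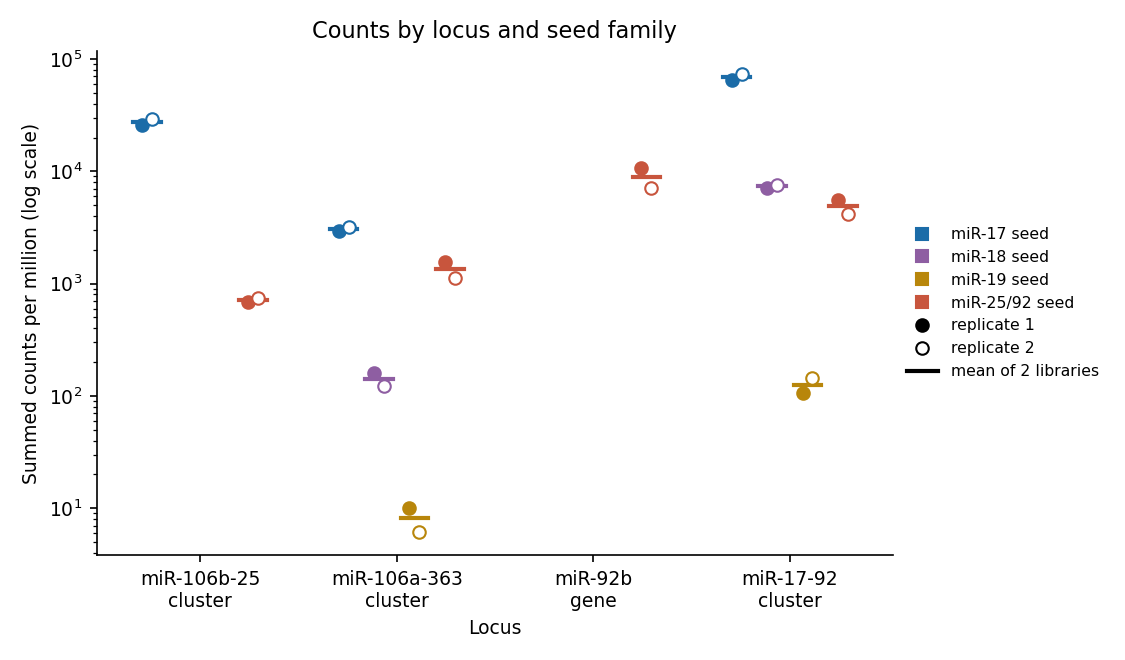
CPM summed over the genes of each seed family at each locus, on a log axis, with filled points for replicate 1, open points for replicate 2 and bars for the mean. Among reads placed at a single position, the miR-17 seed leads at each of the 3 clusters. In the same reads Mir92b, at 10751 and 7092 CPM, is the highest locus for the miR-25/92 seed.

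Genes of other families set the scale for these levels. The nearest genes above and below by mean CPM were taken for each of the 6 described genes that reached 1000 CPM. Mir93 fell between Mirlet7i, a let-7 gene, and Mir10b of the Hoxd cluster, with 17028 and 15264 CPM. Mir106b fell between Mir214 and Mir182, with 10930 and 10658 CPM, and Mir92b between Mir130b and Mir181d, with 8928 and 8586 CPM. Mir106a lay between Mir125b-1 and Mir425, Mir20b between Mir154 and Mir302d, and Mir363 between Mir433 and Mir1193. Of these 12 neighbours, 11 had ranges that overlapped that of the described gene, and Mir425 (1884 and 1927 CPM) was apart from Mir106a.

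None of the 10 genes differed by 2-fold between the libraries. For this, the counts of a gene in the libraries were set against the library totals by an exact binomial test (two-sided). Benjamini-Hochberg adjustment ran over the 393 genes whose mean count reached 10. A call needed a difference of 2-fold or more and an adjusted p below 0.05. The test compares 2 libraries of the same group and no conditions, so a p measures only how these samples differ. It allows for counting noise only and leaves out the spread between replicates, so an abundant gene can pass at a small difference. By this rule 0 of the 10 genes were called, against 3.56% of all genes tested (2.29% higher and 1.27% lower in replicate 2), and 8 of the 10 had an unadjusted p under 0.05, as had 220 of the 393 genes tested. Without a minimum fold, 7 of the 10 passed, against 51.7% of all genes tested. Of these, 3 were higher in replicate 2, against 25.2% of all genes tested in that direction, and 4 were lower, against 26.5%. Over all genes tested, the spread between the libraries in excess of counting noise was 17.4% as a coefficient of variation, taken from edgeR's common dispersion.

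All 4 described genes with the miR-17 seed had the higher level in replicate 2, as had 185 of all 393 genes tested. Of these 4, 2 passed the test without a minimum fold, against 51.7% of all genes tested. Of the 4 with the miR-25/92 seed, 3 were lower in replicate 2, as were 208 of all 393, and 1 was higher. All 4 with this seed passed that test. The log2 ratio of replicate 2 to replicate 1 was 0.26 for Mir93 (adjusted exact p = 1.82e-187) and 0.23 for Mir20b (adjusted exact p = 6.46e-11). It was 0.05 for Mir106a (adjusted exact p = 0.111) and 0.02 for Mir106b (adjusted exact p = 0.0681), which did not pass. Among the genes with the miR-25/92 seed it was -0.60 for Mir92b, -0.65 for Mir92-2 (adjusted exact p = 6.24e-24) and -0.45 for Mir363 (adjusted exact p = 3.78e-35). Mir25 was the exception in this family, at 0.13 (adjusted exact p = 0.00711). Of the comparison genes, Mir17 and Mir20a were at 0.14 and 0.30, and Mir92-1 was at -0.40. The remaining genes, Mir18b at -0.37 and Mir19b-2 at -0.73, had fewer reads behind them. Mir18b passed (adjusted exact p = 2.81e-04) and Mir19b-2 did not (adjusted exact p = 0.119).

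The described genes with the miR-17 seed summed to 28891 CPM in replicate 1 and 32288 in replicate 2, and those with the miR-25/92 seed to 13003 and 8951. The ratio of these sums moved from 2.22 to 3.61. This split by seed was seen in the values and has no test of its own. The median log2 ratio of the 10 genes was -0.17, against -0.04 for all 393 genes tested, and 7 of the 10 lay within 1.5-fold, against 84.5% of all genes tested.

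Mir92b had the clearest difference among the abundant genes described, at 1.52-fold lower in replicate 2. Among the 105 genes that reached 1000 CPM on average, 3 differed by more. Of all 393 genes tested, 56 did. Mir92b and Mir92-2 were the genes here that passed the test with a minimum of 1.5-fold, by which 9.92% of all genes tested passed. Between the same libraries, 2 of the 3 epithelial markers were called lower in replicate 2, Mir200c (1959 and 746 CPM) and Mir429 (2950 and 1362 CPM), while Mir205 had 1271 and 1459 CPM. Both striated muscle markers were called higher, Mir206 (146 and 579 CPM) and Mir133b (5.43 and 13.4 CPM). No marker was at 0, and no marker of the other cell types was called. The part of these cells in the difference of Mir92b was not tested.

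**Figure D4:**
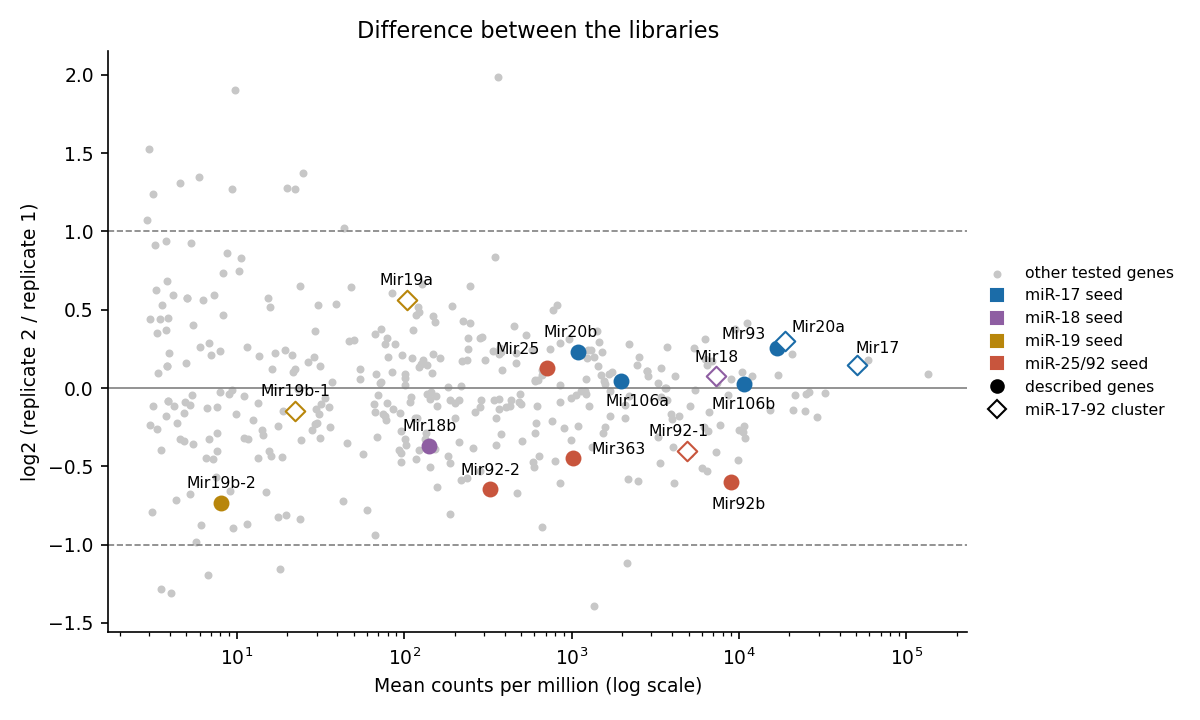
Log2 ratio of replicate 2 to replicate 1 against mean CPM (log axis) for the 393 genes tested, with the 10 described genes as filled circles and the miR-17-92 cluster as open diamonds, coloured by seed family, and dashed lines at 2-fold. Mir93 and Mir20b lie above 0 and Mir92b, Mir92-2 and Mir363 below it, all inside the dashed lines.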

How the data were processed

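Read counts per miRNA gene were deposited by the authors as 1 table per library. According to the authors' notes deposited alongside, reads were aligned to mm10 and counted on GENCODE M4. Aligner, trimming and their settings: not given in the sources used here. The tables have no header. Their columns were read from layout and totals as both strands, the gene's strand and the opposite strand, and the gene's strand was used. On the opposite strand the 10 genes had at most 1 count. Rows naming no gene (unmapped, several positions, no feature) held 52.4% of 5947846 reads in replicate 1 and 53.3% of 8656439 in replicate 2 and stayed out of all totals. Both arms of a hairpin are summed.

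Identifiers were matched without version to GENCODE M21 (1894 of 1973 genes matched). Ratios had 0.5 added to each count. Tools were Python 3.11.15, SciPy 1.17.1, pandas 2.3.3, numpy 2.4.6, matplotlib 3.10.9, R 4.3.3 and edgeR 4.0.16, with DESeq2 1.42.0 for alternatives. A quasi-likelihood test needs residual degrees of freedom, which 1 library against 1 lacks. The test and the dispersion were checked on simulated counts. Those for the test held counting noise only, so its behaviour under the spread seen between these libraries was not checked. The genes, lists, the rule for named genes (all described genes, the miR-17-92 cluster, nearest genes in level, markers) and the tests were chosen with earlier results of these data known.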

Additional observations from a re-analysis of the deposited data

How the results depend on the processing

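Levels and shares moved with the denominator. Without Mir99a in the counts the 10 genes held 4.82%, the miR-106b-25 cluster 3.26% and the miR-106a-363 cluster 0.527%. With all reads as denominator these were 1.92%, 1.30% and 0.210%, and Mir92b was at 4115 CPM. Leaving out genes that share a run of 20 bases removes Mir92-2 and Mir19b-2 here, and Mir92-1 and Mir19b-1 from the miR-17-92 cluster. The remaining described genes then held 4.50% of the remaining counts, and the miR-106b-25 cluster 3.07%. The ratio of that cluster to the reduced miR-17-92 cluster was 0.367, against 0.344 for the full cluster. With both strands together the 10 genes held 4.07%. The number of neighbouring pairs set apart stayed 7 with both strands, edgeR TMM library sizes or DESeq2 size factors. Of the 10 genes, 7 were called between the libraries with no minimum fold and 2 with a minimum of 1.5-fold. Over all 393 genes tested, the calls were 203 (51.7%) and 39 (9.92%). Where the mean count had to reach 100, 4 genes were called in place of 14, with fewer genes tested. All 98 recomputed log2 differences of the described genes kept their direction. Settings that change only the minimum mean count or the minimum fold cannot alter these values, so for them this holds by construction. The coefficient of variation was 18.3% from DESeq2 and 17.5% with no filter on low counts. Leaving out either replicate leaves 1 library and a value with no test: the share of the 10 genes was then 4.14% to 4.21%, and Mir92b 7092 to 10751 CPM, within 1 SD of the mean by construction. No paired analysis was possible because there is a single group. Mir19b-2 is limited by its 28 and 24 counts, from which reads inside the run shared with Mir19b-1 are missing.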

Other observations

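Other genes carry the seeds described here but belong to none of the clusters. They were looked up by sequence after the values of the clusters had been seen. Mir32 carries the miR-25/92 seed:
miR-32-5p: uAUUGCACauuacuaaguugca

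Mir32 had 604 counts or 219 CPM in replicate 1 and 818 counts or 207 CPM in replicate 2, below Mir25 in both libraries. Mir367 of the pluripotency cluster miR-302/367 carries the same seed and had 1 and 2 counts, at or under the limit of 3 counts. Mir6383 carries the miR-17 seed and had 0 counts in both libraries, which allows up to 1.09 and 0.760 CPM. Mir32 thus made up 1.32% of its sum with the 5 listed genes of that seed.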
